A study of Mus musculus with 8 samples.

Results

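The genes described here encode 10 secreted proteins of the extracellular matrix: the small leucine-rich proteoglycans decorin (Dcn) and biglycan (Bgn), the microfibril proteins Mfap5 and fibrillin-1 (Fbn1), the adhesive glycoproteins fibronectin (Fn1) and Tgfbi, and the matricellular proteins Thbs1, Thbs2, Sparc and Fstl1. They were chosen by symbol, with earlier results of these data known. All 10 were found, once each, among the 26642 genes and loci of the count table. Messenger RNA had been sequenced from CT26 cells, a mouse line labelled as colon carcinoma cells, in 4 libraries of unedited cells (WT) and 4 libraries carrying a knockout of Tead1 and Tead4 (KO). The TEAD proteins made from these genes bind DNA for the Hippo pathway effectors YAP and TAZ, and both genotypes were grown in the same medium with serum, with no treatment named. The sources used here do not give the editing method, whether the knockout cells were 1 clone or a pool, or whether replicates were separate cultures. The spread behind the p-values is therefore that of the libraries, and it may be technical.

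Cells lay down fibronectin and fibrillin as fibres, and these fibres carry collagens, proteoglycans and latent growth factors such as TGF-beta. Decorin and biglycan consist of a protein core of leucine-rich repeats with glycosaminoglycan chains, and bind collagen fibrils. Matricellular proteins such as thrombospondins and Sparc are released into the matrix and act on cell adhesion and on growth factors more than as structural parts. In carcinomas most of these genes are expressed mainly by stromal fibroblasts, but mesenchymal-like tumour lines can transcribe them too.

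Total counts lay between 29679405 and 32774905 per library, and 3 counts corresponded to 0.0873 to 0.110 CPM (counts relative to library size, scaled with TMM factors). KO replicate 1 had a count above 0 in 14345 genes and loci, against 17759 to 17948 in the other KO libraries and 14566 to 15430 in WT. Tead1 was at 319, 155, 142 and 209 CPM in WT replicates 1 to 4 and at 51.2, 64.8, 76.3 and 77.8 CPM in KO replicates 1 to 4, a log2 fold change of -1.61 (edgeR adjusted p = 0.00217). Tead4 was at 52.1, 36.7, 39.4 and 63.2 CPM in WT and at 25.8, 23.3, 31.2 and 37.0 CPM in KO, so that the groups overlapped (-0.71, edgeR adjusted p = 0.0261). The Tead4 call was lost with the WT pairs described next summed (adjusted p = 0.0701), without WT replicate 1 or 4 or KO replicate 2 or 3 (adjusted p = 0.0601, 0.0664, 0.0800 and 0.0606) and under upper-quartile scaling or none beyond library size (0.0692 and 0.0800). Of the epithelial markers listed for cells labelled as colon carcinoma, Epcam was at 0 in all 8 libraries and Cdh1 at 0 to 0.153 CPM, while Krt18 stood at 36.2 to 88.8 CPM and Krt20 at 20.4 to 62.9 CPM. Krt19, Cldn3, Cldn7, Cdx2, Vil1, Elf3 and Muc2 were each under 0.5 CPM throughout, and Krt8 was at 0 to 1.00 CPM. Lgals4 was at 0.110 to 0.375 CPM in WT and at 1.77 to 9.44 CPM in KO. Of the fibroblast markers, Col1a2 stood at 1117 to 1777 CPM, Col1a1 at 134 to 334, S100a4 at 95.5 to 572, Prrx1 at 97.3 to 151 and Twist1 at 51.8 to 94.5 CPM. Pdgfrb stood at 23.0 to 110, Col3a1 at 5.75 to 212 and Pdgfra at 5.34 to 44.2 CPM. Tagln was at 0.710 to 1.42 and Fap at 0 to 2.17 CPM, while Postn was at 0 and Acta2, Thy1 and Lum were each under 0.5 CPM throughout. The WT libraries fell into closer pairs: replicates 1 and 4 differed with a chi-square per degree of freedom of 34.7 and replicates 2 and 3 with one of 35.0, against 201 to 242 for the other WT pairs. Among the KO libraries, replicates 2 and 4 were closest at 66.4, against 116 to 257 for the other KO pairs, and none were summed. With each of the closer WT pairs summed to 1 library, an alternative chosen after the data were seen, 5 of the 10 genes were called higher and Bgn was not, and 3394 rows were called in place of 5513.

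All 10 genes passed the filter on low counts, and 6 of them were called higher in the KO libraries at an adjusted p under 0.05: Dcn, Mfap5, Tgfbi, Thbs2, Bgn and Thbs1. None was called lower by edgeR's quasi-likelihood test, nor was any lower at an unadjusted p under 0.05, and DESeq2 and limma-voom also called 6 higher and none lower. Over all 13265 rows tested 41.6% were called, 20.9% as higher and 20.6% as lower. The same 6 genes had KO values wholly above their WT values, as did 21.1% of all rows, and 19.6% lay wholly below. The median log2 fold change of the 10 genes was 1.25, and that of all rows was 0.022. Because the 10 genes were chosen with earlier results of these data known, these contrasts with all rows are only a description. Dcn and Mfap5 passed the filter through their KO counts alone and so had to differ. They add no support to the 6 calls or to the 6 genes without overlap. Fn1, Sparc, Fbn1 and Fstl1 were not called. In bulk RNA, more cells of a type and more RNA per cell cannot be told apart.

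**Figure D1:**
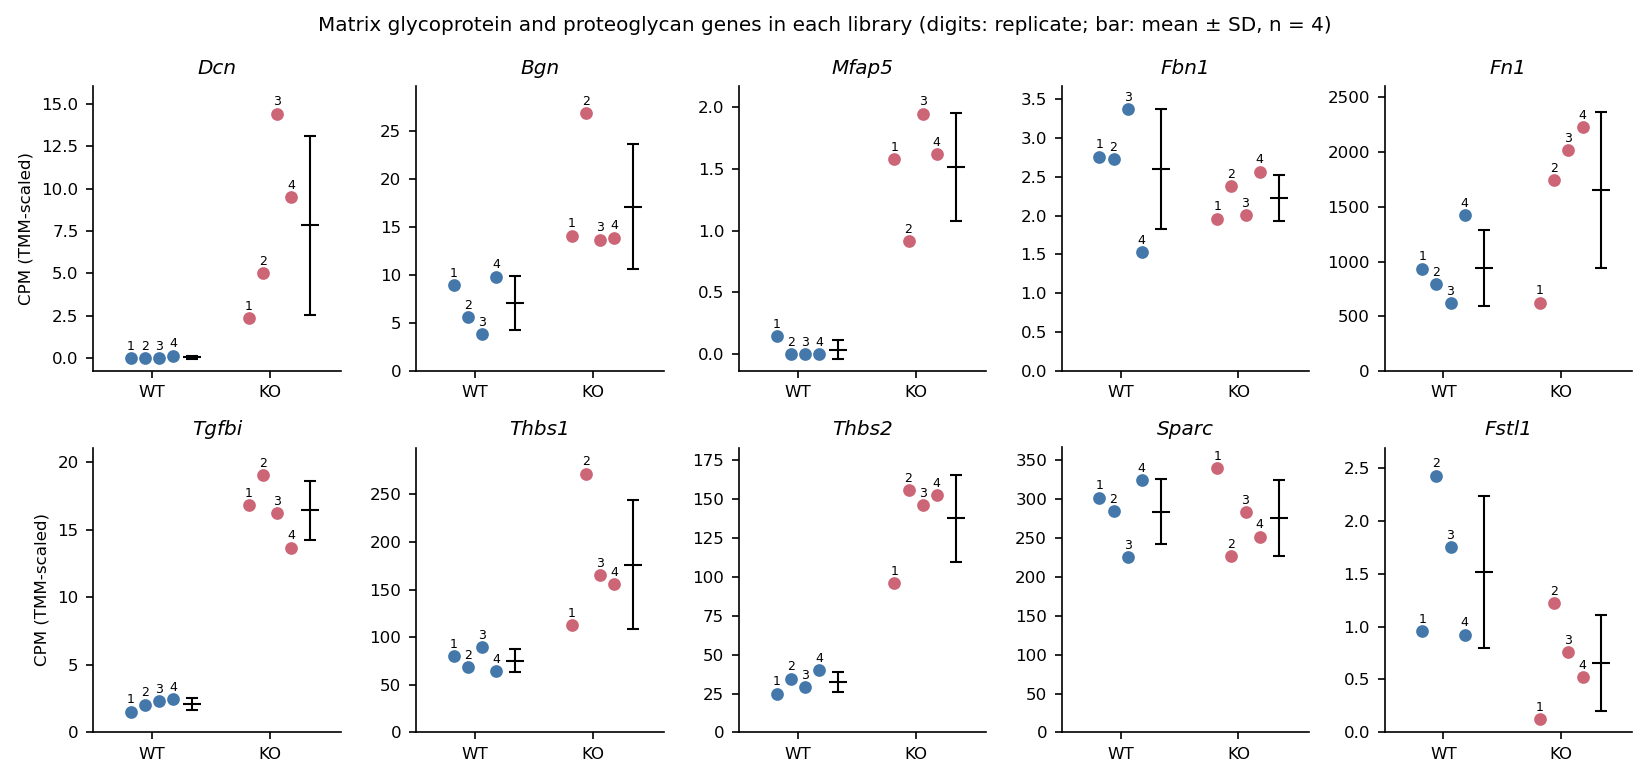
Level of each of the 10 genes in TMM-scaled CPM (vertical axis, starting at or just below 0) in 4 WT (blue) and 4 KO (red) libraries. Digits give the replicate and black bars the mean ± SD (n = 4). The KO points of Dcn, Bgn, Mfap5, Tgfbi, Thbs1 and Thbs2 lie wholly above the WT points, and those of Fn1, Fbn1, Sparc and Fstl1 overlap them.

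RefSeq promoter windows were at hand for 6 of the 10 genes on GRCm38.p6, with no entry for Dcn, Mfap5, Fn1 and Thbs1. Those of the 3 called genes among them, Tgfbi, Thbs2 and Bgn, are printed because the knockout was aimed at transcription factors and these genes were called. RefSeq starts differ from the gene starts printed here with each gene, which are those of GENCODE M21: the windows run over the 250 bases before the RefSeq start. That start lay 1 base before the GENCODE start for Bgn, 27 bases before it for Thbs2 and 63 bases inside the gene for Tgfbi, whose window is printed only up to the GENCODE start. It lay 182 bases inside the gene for Fstl1, 1555 for Fbn1 and 3103 for Sparc, so that the windows of Fbn1 and Sparc are wholly within the genes. Capitals mark matches, on either strand, to the GC box letters GGGCGG or the TATA box letters TATAAA, and those on the opposite strand read CCGCCC or TTTATA.
Tgfbi, chr13:56609336-56609522, plus strand: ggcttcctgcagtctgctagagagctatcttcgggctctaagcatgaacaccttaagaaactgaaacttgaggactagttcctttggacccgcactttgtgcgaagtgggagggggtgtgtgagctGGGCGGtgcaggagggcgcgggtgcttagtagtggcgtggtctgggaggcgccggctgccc
Thbs2, chr17:14694263-14694512, minus strand: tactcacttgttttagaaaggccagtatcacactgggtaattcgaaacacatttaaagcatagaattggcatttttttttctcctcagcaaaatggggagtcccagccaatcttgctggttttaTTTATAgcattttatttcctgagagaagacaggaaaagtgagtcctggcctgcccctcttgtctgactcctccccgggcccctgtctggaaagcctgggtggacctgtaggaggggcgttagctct
Bgn, chrX:73483351-73483600, plus strand: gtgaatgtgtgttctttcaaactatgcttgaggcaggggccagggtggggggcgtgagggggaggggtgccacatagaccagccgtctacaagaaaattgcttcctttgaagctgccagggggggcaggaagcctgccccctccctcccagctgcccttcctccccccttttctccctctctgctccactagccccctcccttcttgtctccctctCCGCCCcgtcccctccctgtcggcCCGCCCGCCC
The letters GGAATG, the core bound by TEAD factors, were in none of the 6 windows, against 12.6% of all 32851 windows of that length. TGANTCA, the letters of an AP-1 site, were in none of them either, against 6.75% of all windows. No match says only that these letters are not in these 250 bases. GGGCGG was in 4 of the 6 windows (Bgn, Fbn1, Tgfbi and Fstl1) and in 32.7% of all windows. The Bgn window held 3 matches, which began 34, 10 and 6 bases before the RefSeq start, the last pair overlapping. The match in the Tgfbi window began 124 bases before the RefSeq start and 61 bases before the GENCODE start. TATAAA was in the Thbs2 window alone among the 6, beginning 126 bases before the RefSeq start, and in 12.4% of all windows. The whole windows also differed in base composition. Those of Tgfbi and Bgn were 62.4% and 64.4% G or C with 15 and 7 CpG dinucleotides, and that of Thbs2 was 46.8% with 3, beside medians of 52.4% and 6.0 over all windows.

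Decorin changed from near absence to a clear level. Dcn (ENSMUSG00000019929; GRCm38 chromosome 10, 97479609 to 97518143, plus strand) had a count of 0 in WT replicates 1, 2 and 3 and a count of 4, or 0.142 CPM, in WT replicate 4. In KO replicates 1 to 4 it stood at 2.37, 5.02, 14.4 and 9.50 CPM. Every KO library was above every WT library, and the KO libraries themselves were spread over a wide range with replicate 1 the lowest. Dcn rose with a log2 fold change of 7.65 (SE 0.97, edgeR adjusted p = 0.000803). It passed the filter through its KO counts alone, so this call is no support. Since WT held 4 counts against 1047 in KO, the fold is loosely fixed: the ratio of the pooled counts was 227, and its exact 95% interval for counting error ran from 88.6 to 836. Without WT replicate 4 the WT libraries were all at 0 and the fitted value of 10.9 then depended on the prior count.

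Biglycan, the paralogue of decorin, was expressed in both genotypes. Bgn (ENSMUSG00000031375; chromosome X, 73483602 to 73495933, plus strand) was at 8.91, 5.60, 3.84 and 9.83 CPM in WT replicates 1 to 4 and at 14.1, 26.9, 13.7 and 13.9 CPM in KO. The genotypes did not overlap, and KO replicate 2 stood well above the other KO libraries, which were within 1 CPM of each other. Bgn rose from 7.04 ± 2.80 to 17.1 ± 6.49 CPM (SD, n = 4), a log2 fold change of 1.28 (SE 0.34, edgeR adjusted p = 0.0151). Without KO replicate 2 the log2 fold change was 0.99 (adjusted p = 0.0455). WT replicates 1 and 4, one of the closer WT pairs, were both above WT replicates 2 and 3, and with the pairs summed Bgn was not called (1.25, adjusted p = 0.0559).

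The microfibril genes did not move alike. Mfap5 (ENSMUSG00000030116; chromosome 6, 122505845 to 122529290, plus strand), which encodes a small glycoprotein on fibrillin microfibrils, had a count of 4 (0.147 CPM) in WT replicate 1 and of 0 in the other WT libraries. It reached 1.58, 0.914, 1.95 and 1.62 CPM in KO replicates 1 to 4, low levels that were all above those of WT. Mfap5 rose with a log2 fold change of 5.27 (SE 0.89, edgeR adjusted p = 0.00234). Like Dcn, it passed the filter through its KO counts alone, so this call is no support. The pooled counts, 4 in WT and 200 in KO, gave a ratio of 43.4 (16.7 to 161 by counting error). Without WT replicate 1 the fitted value was 8.57, set by the prior count.

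Fibrillin-1, the main microfibril subunit, showed no call. Fbn1 (ENSMUSG00000027204; chromosome 2, 125300594 to 125507993, minus strand) was at 2.76, 2.73, 3.37 and 1.53 CPM in WT and at 1.96, 2.38, 2.01 and 2.57 CPM in KO. The KO values lay inside the WT range. The log2 fold change was -0.22 with a 95% interval of -0.92 to 0.48 (edgeR adjusted p = 0.591), so changes inside that interval are not excluded by these libraries.

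Fibronectin, the ligand of integrin alpha-5 beta-1, was the most highly expressed of the 10 genes by CPM. Fn1 (ENSMUSG00000026193; chromosome 1, 71585520 to 71653200, minus strand) stood at 936, 796, 618 and 1422 CPM in WT replicates 1 to 4. In KO replicates 2, 3 and 4 it stood at 1743, 2017 and 2231 CPM, all above WT, but in KO replicate 1 it was at 625 CPM, near the lowest WT library. The log2 fold change was 0.81 with a 95% interval of -0.061 to 1.68, which did not pass (edgeR adjusted p = 0.119). Without KO replicate 1 it was 1.07 and passed (adjusted p = 0.0126), and over the other 7 omissions of 1 library it lay between 0.64 and 1.056 without passing. KO replicate 1 also had the fewest genes detected among the KO libraries, and the part of that in this value was not tested.

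Tgfbi, a secreted protein named for its induction by TGF-beta, differed most evenly. Tgfbi (ENSMUSG00000035493; chromosome 13, 56609523 to 56639562, plus strand) was at 1.55, 2.05, 2.32 and 2.48 CPM in WT and at 16.8, 19.0, 16.3 and 13.7 CPM in KO. The genotypes were far apart, and KO replicate 1 lay within the range of the others. Tgfbi rose from 2.10 ± 0.412 to 16.4 ± 2.19 CPM (SD, n = 4), or 7.81-fold, with a log2 fold change of 2.97 (SE 0.22, edgeR adjusted p = 0.000119). It lay between 2.84 and 3.05 when any 1 library was left out, the narrowest such range among the called genes.

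The thrombospondins, which bind the receptors CD36 and CD47, both rose. Thbs1 (ENSMUSG00000040152; chromosome 2, 118111876 to 118127133, plus strand) stood at 79.96, 68.2, 89.6 and 64.0 CPM in WT and at 112, 272, 165 and 156 CPM in KO. KO replicate 2 was the highest and KO replicate 1 the lowest KO library, still above all of WT. The log2 fold change of Thbs1 was 1.22 (SE 0.25, edgeR adjusted p = 0.00536). Thbs2 (ENSMUSG00000023885; chromosome 17, 14665500 to 14694235, minus strand) stood at 24.9, 34.6, 29.2 and 39.8 CPM in WT and at 96.0, 156, 146 and 153 CPM in KO. KO replicate 1 stood apart below the other KO libraries, which were close together. Thbs2 rose by 2.10 on the log2 scale (SE 0.21, edgeR adjusted p = 0.000333). The count ratio of Thbs2 to Thbs1, which does not depend on scaling, was 0.312, 0.508, 0.326 and 0.623 in WT and 0.854, 0.573, 0.886 and 0.980 in KO. It overlapped between genotypes, and its mean difference of 0.93 on the log2 scale did not pass an exact two-sided permutation test (p = 0.0571 over 70 assignments, 0.114 adjusted over the 2 ratios examined). Given the p of the other ratio, even full separation of the genotypes would not have passed after this adjustment. A larger change of Thbs2 than of Thbs1 was therefore not shown, and the adjusted test could not have shown it.

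Sparc, a collagen-binding matricellular protein, was abundant and not called. Sparc (ENSMUSG00000018593; chromosome 11, 55394500 to 55423183, minus strand) was at 302, 284, 225 and 324 CPM in WT and at 340, 227, 283 and 252 CPM in KO. The ranges coincided almost entirely, with KO replicate 1 the highest of all 8 libraries. The log2 fold change was -0.045 with a 95% interval of -0.44 to 0.35 (edgeR adjusted p = 0.856), and its sign turned under upper-quartile scaling (0.13) and when only library size was used (0.13). Relative to Sparc, Fn1 counts were 3.10, 2.80, 2.74 and 4.39 times as many in WT and 1.84, 7.68, 7.13 and 8.87 times as many in KO. KO replicate 1 was the lowest of the 8 libraries for this ratio and the other KO libraries were the highest. The exact two-sided permutation test gave p = 0.171 (0.171 adjusted over the 2 ratios). Here too, full separation would not have passed after adjustment. The same exact two-sided permutation test without KO replicate 1, an alternative chosen after the data were seen, gave p = 0.0286, not adjusted. The remaining KO libraries all lay above WT, so this was the smallest p that test could give, and it is no support.

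Fstl1, a secreted protein related to Sparc by sequence, was scarce. Fstl1 (ENSMUSG00000022816; chromosome 16, 37776873 to 37836514, plus strand) stood at 0.957, 2.42, 1.75 and 0.923 CPM in WT and at 0.126, 1.22, 0.756 and 0.520 CPM in KO. Only KO replicate 2 reached into the WT range, and KO replicate 1 rested on 4 counts. The log2 fold change was -1.20 with a 95% interval of -2.57 to 0.16 (edgeR adjusted p = 0.138), and no call was made when any 1 library was left out (adjusted p = 0.0868 to 0.325).

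**Figure D2:**
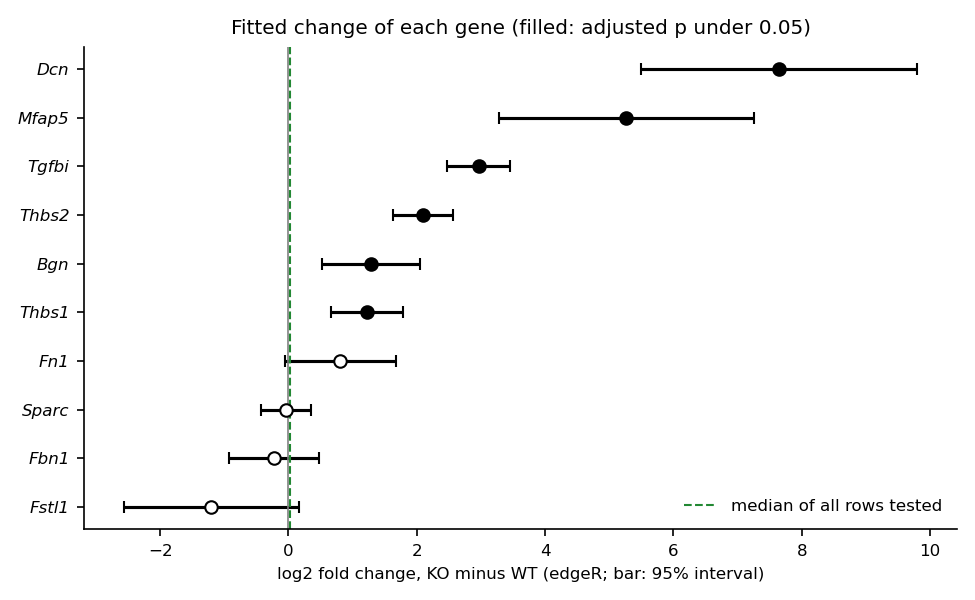
Log2 fold change of each gene, KO minus WT (horizontal axis), with its 95% interval from edgeR as a bar. Filled points have an adjusted p under 0.05, and the dashed line is the median of all 13265 rows tested (0.022). Dcn (7.65) and Mfap5 (5.27) have the widest intervals among the 6 filled points.

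Omitting any 1 library kept all 6 calls, and the count of called genes was 6 in 7 of the 8 omissions and 7 without KO replicate 1, where Fn1 was added. Dcn and Mfap5, tested through their KO counts alone, add no support to this. KO replicate 1 was the lowest KO library for 6 of the 10 genes and the highest for 1, Sparc. Its level was 0.246 times the mean of the other KO libraries for Dcn, 0.313 times for Fn1, 0.633 times for Thbs2, 0.569 times for Thbs1 and 0.152 times for Fstl1. For Bgn and Fbn1 it was 0.777 and 0.846 times that mean, for Tgfbi and Mfap5 1.03 and 1.057 times, and for Sparc 1.34 times. The summed level of the fibroblast markers was 1710 to 2768 CPM in WT and 2298 to 3076 CPM in KO, with 3 of 9 tested markers called higher (Pdgfra, Pdgfrb and Col3a1, named after their values were seen), beside 20.9% of all rows. Of the 13 leukocyte markers Adgre1, Tyrobp and Cd3e were at 0 in all libraries and Ptprc was at no more than 0.101 CPM, although the list's summed level was 21.1 to 38.5 CPM in WT and 56.7 to 80.5 CPM in KO through Cd14 and Cd68, the only ones tested, both called higher. The endothelial markers summed to 0 to 0.438 CPM in WT and 1.30 to 11.1 CPM in KO through Vwf, the only one tested and called higher, with Kdr, Cldn5 and Erg at 0. The epithelial markers summed to 57.1 to 107 CPM in WT and 110 to 145 CPM in KO, mostly from Krt18 and Krt20, and 2 of 4 tested, Krt18 and Lgals4, were called higher. Vwf and Lgals4 were tested only with their KO counts, so their calls are no support. The part of these markers in the results was not tested.

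**Figure D3:**
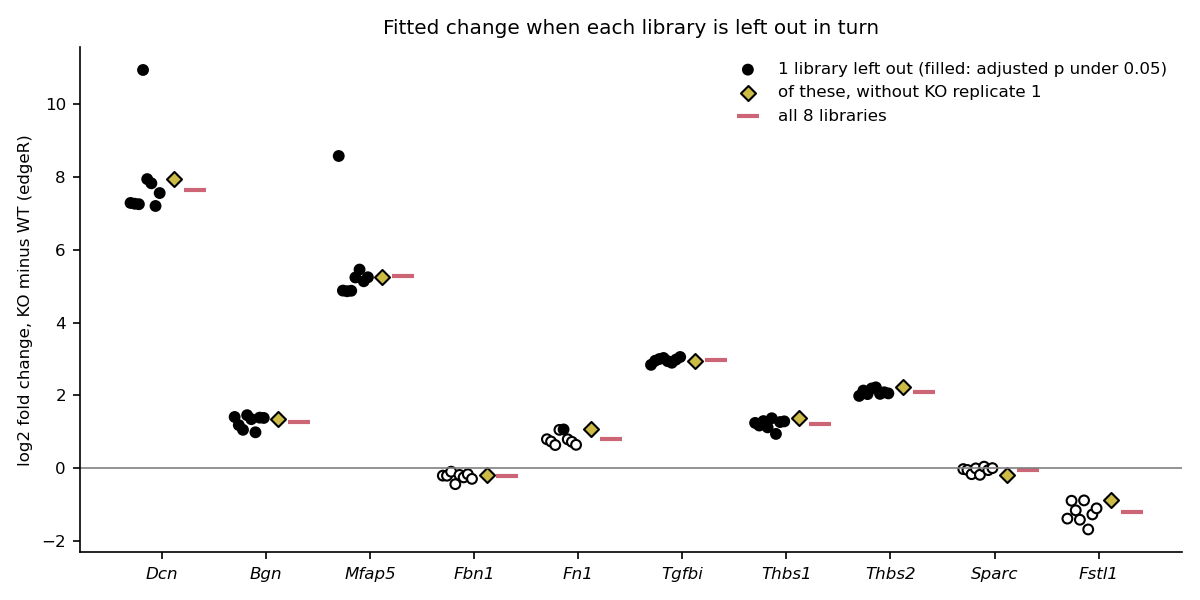
Log2 fold change of each gene, KO minus WT (vertical axis), in the 8 fits that leave out 1 library (circles, filled where the adjusted p is under 0.05), with the fit without KO replicate 1 repeated as a diamond, and with all libraries (red dashes). The 6 called genes keep filled circles throughout, and Fn1 has 1 filled circle, at 1.07. The highest circles of Dcn (10.9) and Mfap5 (8.57) leave out the only WT library with a count.

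Levels were compared between genes as CPM per kb of merged exons. In WT the order was Fn1 (80.7 CPM per kb), Sparc (74.9), Thbs1 (12.4), Thbs2 (4.59), Bgn (1.15), Tgfbi (0.557), Fstl1 (0.308), Fbn1 (0.214), Mfap5 (0.010) and Dcn (0.0061). The ranges of neighbouring genes overlapped for Fn1 and Sparc, for Bgn and Tgfbi, for Tgfbi and Fstl1, for Fstl1 and Fbn1, and for Mfap5 and Dcn. In KO the order was Fn1 (142), Sparc (72.7), Thbs1 (29.0), Thbs2 (19.7), Tgfbi (4.36), Bgn (2.81), Dcn (1.34), Mfap5 (0.422), Fbn1 (0.184) and Fstl1 (0.133). There the neighbours Sparc and Thbs1, Thbs2 and Tgfbi, and Mfap5 and Fbn1 were the pairs with separate ranges. Dcn and Mfap5 thus stood last in WT and above Fbn1 and Fstl1 in KO. The length used changed this order. Per kb of the longest transcript Sparc (123) stood above Fn1 (113) in WT, and per kb of coding sequence it did so in both genotypes (285 against 127 in WT, 276 against 223 in KO). In KO Bgn stood above Tgfbi per kb of the longest transcript (6.42 against 5.48) and of coding sequence (15.5 against 8.03), and by coding length Fstl1 stood above Tgfbi in WT (1.65 against 1.03) and above Fbn1 in KO (0.714 against 0.258).

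**Figure D4:**
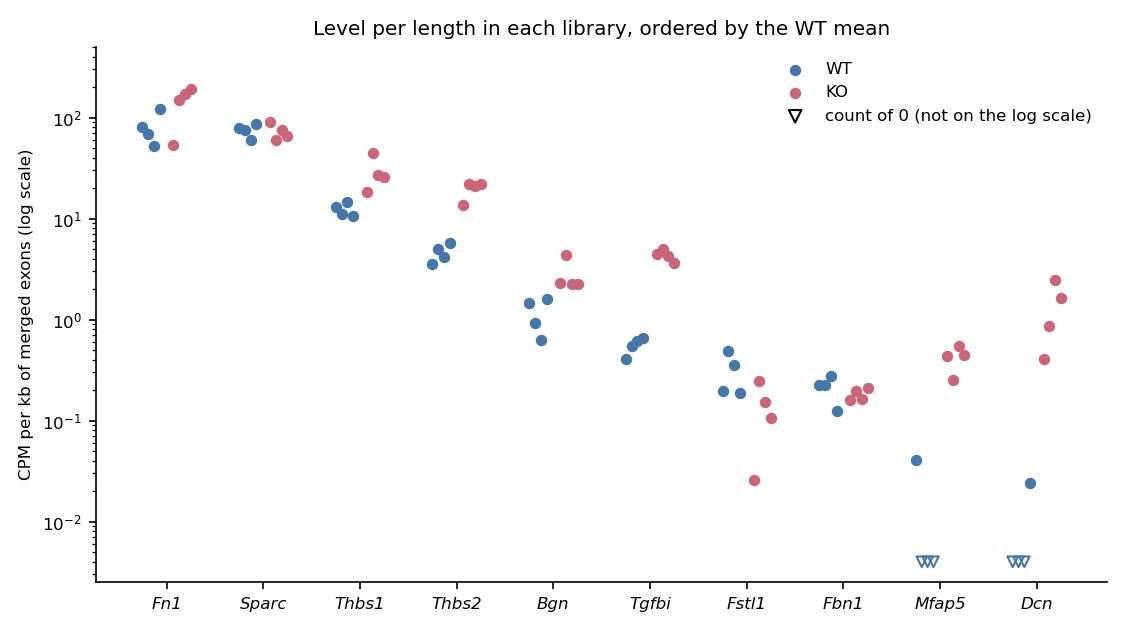
CPM per kb of merged exons (vertical axis, log scale) in 4 WT (blue) and 4 KO (red) libraries, with genes ordered by their WT mean. Triangles mark counts of 0, which a log scale cannot show. Fn1 and Sparc stand highest in both genotypes, and Dcn and Mfap5 have 3 WT libraries at 0.

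Related genes of the matrix were listed by role, 140 distinct genes without the 10 described. These lists too were chosen with earlier results of these data known, so their shares beside those of all rows are only a description. Of the 88 that passed the filter on low counts 41 were called (46.6%, beside 41.6% of all rows), 31 higher and 10 lower, with a median log2 fold change of 0.22. Under upper-quartile scaling, and likewise when only library size was used, 36 were called higher and 4 lower, which moved the share of higher calls from 75.6% to 90.0%, while over all rows it moved from 50.4% to 64.6% and 63.5%. With the closer WT pairs summed, 18 were called higher and 4 lower. Without WT replicate 1 or 4 the lower calls numbered 6, and without KO replicate 2, 3 or 4 they numbered 4.

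**Figure D5:**
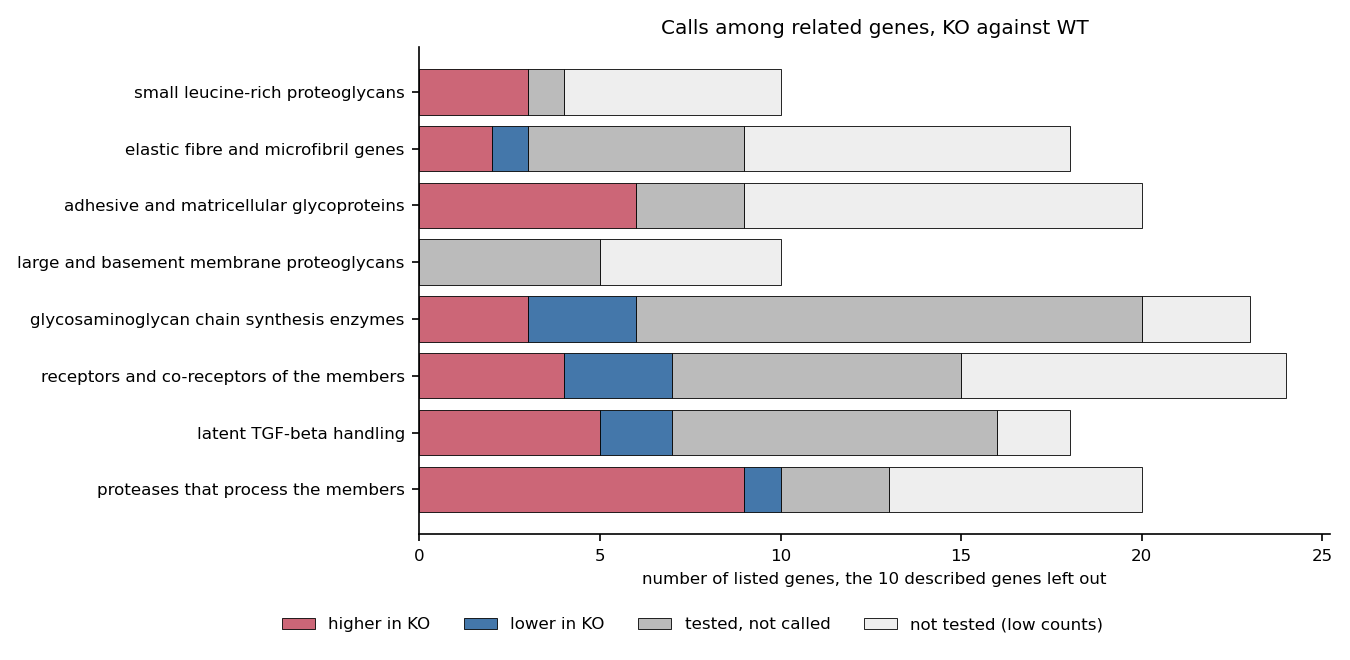
Number of listed genes (horizontal axis) in each of 8 role lists, the 10 described genes left out, that were called higher in KO (red), called lower (blue), tested without a call (grey) or not tested for low counts (pale). The small leucine-rich proteoglycan list has 3 higher calls among 4 tested genes, and the large proteoglycan list has no call among 5.

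Other small leucine-rich proteoglycans rose beside Dcn and Bgn: 3 of 4 tested, of 10 listed, were called higher and none lower by edgeR, DESeq2 or limma-voom, or at an unadjusted p under 0.05. Asporin (Aspn) rose from 0.212 ± 0.140 to 4.24 ± 1.94 CPM (edgeR adjusted p = 0.000777), but only 1 WT library reached 10 counts, so that like Dcn it was tested through its KO counts. Prelp, which links basement membranes to matrix, rose from a mean of 2.40 to one of 53.1 CPM (adjusted p = 0.00133). Osteoglycin (Ogn) was the most abundant of the 3 by CPM and rose from 46.5 ± 31.0 to 320 ± 114 CPM (adjusted p = 0.0062). The large and basement membrane proteoglycans had no call among 5 tested in edgeR and in limma-voom, with 1 higher at an unadjusted p under 0.05 and 1 higher in DESeq2. Among elastic fibre and microfibril genes 2 of 9 tested were higher and 1 was lower. For this and the other lists, 20.9% of all rows were called higher and 20.6% lower. Ltbp3, a latent TGF-beta binding protein, had a log2 fold change of 0.83 (SE 0.20) and Emilin1, an elastin-associated glycoprotein, one of 1.89 (SE 0.46), while Ltbp2, a fibrillin-binding relative that does not bind latent TGF-beta, had one of -1.67 (SE 0.39; edgeR adjusted p = 0.00994, 0.0107 and 0.00877).

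Among the other adhesive and matricellular glycoproteins 6 of 9 tested were higher and none lower by edgeR, and at an unadjusted p under 0.05 the counts were 7 and 0. Of all rows, edgeR called 20.9% higher and 20.6% lower. DESeq2 also gave 7 and 0, and limma-voom 6 and 0. Tnxb, which encodes tenascin-X, stood at 61.5 ± 24.5 CPM in WT and 750 ± 386 CPM in KO (edgeR adjusted p = 0.00105). Smoc1, a calcium-binding relative of Sparc, rose by 2.97 (SE 0.58) at levels under 3 CPM, and Ecm1 rose by 1.02 (SE 0.27), with overlapping genotypes for Ecm1. The adjusted p of both was 0.0151 or less, and with the closer WT pairs summed that of Ecm1 was 0.0538. Smoc1 and 1 other of the 6 had fewer than 4 WT libraries at 10 counts and were tested only with their KO counts.

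Receptors and co-receptors of the 10 proteins were called higher in 4 and lower in 3 of 15 tested cases. Of all rows 20.9% were called higher and 20.6% lower. Sdc4, a heparan sulfate co-receptor for fibronectin, rose from 38.2 ± 7.42 to 117 ± 26.8 CPM (edgeR adjusted p = 0.00092). Cd47, a thrombospondin receptor, rose with a log2 fold change of 1.38 (SE 0.22), and Tlr4, a receptor for soluble biglycan, with one of 1.16 (SE 0.23). The lower calls were Calr, Met and Sdc1 (-0.96, -0.51 and -0.97). Calr lost its call without KO replicate 4 (adjusted p = 0.05004), and Met and Sdc1 each lost theirs in 5 of 8 omissions of 1 library. The losses of Met came without WT replicate 1 or 4 or KO replicate 2, 3 or 4 (adjusted p up to 0.0835) and those of Sdc1 without WT replicate 2 or 3 or KO replicate 2, 3 or 4 (up to 0.101). Both also lost it under upper-quartile scaling (0.0713 and 0.0601), with library size alone (0.0557 and 0.0514) and with the closer WT pairs summed (0.0809 and 0.1003).

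Genes that handle latent TGF-beta, which fibrillin, Thbs1 and decorin bind or activate, were higher in 5 and lower in 2 of 16 tested cases. Of all rows 20.9% were called higher and 20.6% lower. Smad3, a signal transducer of the pathway, rose from 82.1 ± 5.25 to 250 ± 83.1 CPM (edgeR adjusted p = 0.00181). The ligand gene Tgfb3 rose with a log2 fold change of 0.82 (SE 0.16), and the co-receptor gene Tgfbr3 with one of 1.07 (SE 0.24) and overlapping genotypes. Smad4 and Smad2 had log2 fold changes of -0.45 and -0.55. Smad4 lost its call without KO replicate 2 or 3 (adjusted p up to 0.0593) and Smad2 without WT replicate 1 or 4 or KO replicate 2, 3 or 4 (up to 0.0845), and both lost it under upper-quartile scaling (0.117 and 0.0775).

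Enzymes that build glycosaminoglycan chains, which decorin and biglycan carry, were higher in 3 and lower in 3 of 20 tested cases. Of all rows 20.9% were called higher and 20.6% lower. Chst15, a chondroitin sulfotransferase, rose by 0.93 on the log2 scale (SE 0.22, edgeR adjusted p = 0.0102). Chst11, another chondroitin sulfotransferase, fell from 1.79 ± 0.554 to 0.225 ± 0.154 CPM (adjusted p = 0.00875) and was tested only with its WT counts. The other calls, B3gat3 (0.42), Csgalnact2 (0.44), Chpf (-0.47) and Ext1 (-0.57), were each lost in 6 or 7 of the 8 omissions of 1 library. B3gat3 kept its call only without WT replicate 3 and Csgalnact2 only without KO replicate 1, with adjusted p of up to 0.10048 and 0.107 elsewhere. Chpf kept it without WT replicate 2 or KO replicate 1 and Ext1 without WT replicate 2 or 3, with adjusted p of up to 0.138 and 0.117 elsewhere, and both lost it under upper-quartile scaling (0.136 and 0.143).

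Proteases that cut or mature these proteins showed 9 higher calls and 1 lower among 13 tested, beside 20.9% and 20.6% of all rows. Mmp13, a collagenase, rose from a mean of 4.52 to one of 38.7 CPM (edgeR adjusted p = 0.000267) and Mmp3, a stromelysin, from 0.243 ± 0.171 to 15.7 ± 10.9 CPM (adjusted p = 0.000392). Mmp2, a gelatinase, had a count of 0 in all WT libraries and a mean of 2.65 CPM in KO, at least 25.2-fold higher against 3 counts per WT library. Mmp2, Mmp3 and 1 other of the 9 had fewer than 4 WT libraries at 10 counts and were tested only with their KO counts. The membrane-anchored Mmp14 fell from 122 ± 24.97 to 70.2 ± 4.41 CPM (adjusted p = 0.00501).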

How the data were processed

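RNA was extracted with TRIzol and made into mRNA libraries for Illumina sequencing, per the labels' protocols. Per the submitters' processing notes, HISAT2 and StringTie were used with the mouse build GRCm38. The authors deposited raw counts per gene in 2 tables of identical values, of which 1 was used. How reads were counted, by strand or where genes share them, is not stated in the sources used here, and overlapping and antisense genes may not be told apart. Of 22036 annotated identifiers 22022 were found in GENCODE M21, which gave coordinates and lengths.

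Groups and replicate numbers come from the sample titles. No pair of libraries agreed within sampling noise (chi-square per degree of freedom of at least 34.7), so none was taken for a repeat deposit and each was used as 1 library. This does not show that they are separate cultures. Rows were filtered with filterByExpr (minimum count 10), given TMM factors and fitted by the quasi-likelihood functions glmQLFit and glmQLFTest of edgeR 4.0.16 in R 4.3.3, two-sided, KO minus WT, with Benjamini-Hochberg adjustment over 13265 rows and a threshold of 0.05. SE is the log2 fold change divided by the square root of F. CPM were computed here. Exact binomial (Clopper-Pearson, 95%) intervals of count ratios cover counting error only. Tested on simulated KO and WT counts of 13044 genes, with 50 changed at each fold, the fit found 32% of the genes changed 2-fold and 96% of those changed 8-fold. Far fewer genes were changed there than were called in the data, which makes the adjustment of p stricter. These shares are therefore not the recovery in the data.

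The genes and lists were chosen with earlier results of these data known. Named are the 10 genes, Tead1, Tead4, from each list up to 3 called genes per direction with the smallest p, and for the 3 most abundant of the 10 the 2 genes with the nearest profile. Alternatives were other scaling (DESeq2 size factors, upper quartile, library size), filters, DESeq2 1.42.0, limma 3.58.1 (voom), a replicate block, stricter thresholds and each library left out. The 2 count ratios and the sum of the closer WT pairs were added after the data were seen.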

Additional observations from a re-analysis of the deposited data

Results flagged for a closer look

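Of 20 groups of 4 libraries examined (10 genes in 2 genotypes), 4 held a library whose gap to its nearest neighbour exceeded the 95% critical value of Dixon's test, as a share of the group's range. Chance gives about 1 in 20 groups, a rate that does not apply to Dcn and Mfap5 in WT, where 3 libraries at 0 and 1 above 0 make the gap the whole range. WT replicate 4 was the only WT library with Dcn counts (0.142 CPM, gap 1 of the range), and WT replicate 1 the only one with Mfap5 counts (0.147 CPM, gap 1); each rests on 4 counts. KO replicate 2 stood high for Bgn at 26.9 CPM (gap 0.968 of the range). KO replicate 1 stood low for Thbs2 at 96.0 CPM (gap 0.838 of the range).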

How the results depend on the processing

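Under other scaling, other filters, DESeq2, limma-voom and the omission of single libraries, each of the 6 called genes that was tested kept its direction and its call. For Dcn and Mfap5 this is no support, since they were tested through their KO counts alone. With the closer WT pairs summed, 3394 rows, 5 of the 10 genes and 22 related genes were called, and of the 6 Bgn lost its call (0.0559). Ltbp3, Tgfbr3, Smad4, Smad2, B3gat3, Csgalnact2, Chpf, Ext1 and Appl2 lost theirs too (0.0503, 0.0535, 0.0756, 0.0673, 0.112, 0.174, 0.107, 0.0836 and 0.0657). Fewer libraries enter that fit. Bgn alone of the 6 missed an adjusted p under 0.01 (0.0151) and, tested against a log2 difference of 0.5, the threshold (0.0531), and Dcn and Mfap5 were not tested with a minimum of 5 CPM in 4 libraries, which left 4 calls. The calls over all rows fell from 5513 to 2736 at an adjusted p under 0.01 and to 2603 against a log2 difference of 0.5, and those of the related genes from 41 to 21 and 20. Over all rows the median moved from 0.022 to 0.198 under upper-quartile scaling and to 0.200 when only library size was used. The sign of Sparc turned under both of these (0.13 and 0.13) and the stricter filter (0.032), and lay between -0.18 and 0.047 with 1 library left out. Mrpl39 turned under the 2 scalings (0.083 and 0.081). Acot9 turned with both (0.14 and 0.14) and with the stricter filter (0.042), and ranged from -0.19 to 0.027 with 1 library left out. Per kb of coding sequence, 6 of the 10 genes kept their rank in WT and 4 in KO. The replicate numbers did not pair the libraries: deviations of same-numbered libraries correlated at -0.032 to -0.0028, and 0 libraries correlated best with their own number. With 1 library left out, 3809 to 6829 rows, 6 to 7 of the 10 genes and 29 to 50 related genes were called. With the replicate number as a block 4683 rows, 6 of the 10 genes and 35 related genes were called. Levels near 3 counts (0.0873 to 0.110 CPM) limit Dcn and Mfap5 in WT and Fstl1 in KO replicate 1.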

Other observations

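The genes whose profile over the 8 libraries lay nearest to those of the 3 most abundant of the 10 were looked up, by the root mean square difference of centred log2 CPM. Because the libraries share genotype and depth, nearness is only a description. The genes were picked by these same values, so calls like those of the gene they resemble follow from the choice. Such calls are no separate support. For Thbs1 they were Tmem158 (difference 0.147), which rose from a mean of 8.45 to 17.8 CPM, and Appl2 (0.171), which rose from 14.7 to 29.2 CPM (edgeR adjusted p = 0.00752 and 0.0135). For Sparc they were Mrpl39 (0.078) and Acot9 (0.086), with log2 fold changes of -0.095 and -0.033 and no call. For Fn1 they were Cfb (0.205) and Vmn1r43 (0.233), with log2 fold changes of 0.93 and 0.54. Neither was called with all libraries (edgeR adjusted p = 0.0552 and 0.238), and both were called without KO replicate 1 (adjusted p = 0.00577 and 0.0360), as was Fn1. Cfb, a complement factor, was also called by DESeq2 (0.0261), under upper-quartile scaling (0.0308) and when only library size was used (0.0331).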
